A study of Mus musculus with 12 samples.

Results

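The genes described are the mouse proteasome genes: the subunits of the 20S core, the 19S cap and the activators, together with the chaperones that assemble them and the inhibitor protein PI31. They were taken from 22104 transcript clusters on an expression array as the clusters whose gene symbol begins with Psm, a letter from a to g and a number. The pattern matched 50 of the 19480 named genes, each with 1 cluster. Psmc3ip and Psme3ip1 match by name only, being partners of a subunit, and were set apart. The remaining 48 genes comprised 18 of the core, 17 of the cap, 5 activators, and 8 assembly chaperones or inhibitor proteins. Psmb5, the catalytic core subunit with chymotrypsin-like activity, was not analysed here.

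The proteasome is the barrel-shaped protease that degrades proteins tagged with ubiquitin. Its core is built of alpha rings, which gate the entry, around beta rings, which carry the cutting sites, and the cap recognises, unfolds and feeds in the substrate. Interferon exchanges the catalytic beta subunits for inducible forms (the immunoproteasome), whose peptides are loaded on MHC class I, and the transcription factor NRF1 raises all standard subunits together when proteasome capacity falls short. In adipocytes, NRF1 is known for adapting the proteasome to thermogenic demand and to lipid and cholesterol load.

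Transcript levels were measured in 3T3-L1 cells, a single mouse preadipocyte line that becomes lipid-filled under a hormone cocktail, on 12 arrays with 1 array per culture. Control cells received ethanol and DMSO. ALA cells received alpha-linolenic acid, a plant omega-3 fatty acid, at 50 µM, carried in 2% bovine serum albumin stripped of fatty acids. Inhibitor cells received a compound against delta-6-desaturase (D6D), the desaturase that starts the conversion of ALA into long-chain omega-3 acids, at 5 µM, and the last group received both. All 4 groups went through differentiation with treatment from day 0 to day 8, in maintenance medium with insulin at 5 µg/ml, and each group had 1 culture of passage 6, 7 and 8. Albumin is stated for the ALA medium and vehicle for the control only, so a difference with ALA includes any difference in carrier that was not matched. All cultures belong to 1 line, so the p-values speak only for variation among its cultures.

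Array medians lay between 6.14 and 6.27 on the log2 scale of the deposited values, on which a difference of 1 is a factor of 2. The array of ALA at passage 7 stood apart, correlating with the others at 0.976 to 0.987 against 0.989 to 0.994 among the other 11. That array held the lowest value of 16 of the 48 proteasome genes, where 33.1% of the 11052 brighter clusters had their lowest value there too. Without it the ALA difference changed sign in 20 of the 48 genes and the difference of both agents against ALA in 10, so values without it are set beside results that it turns or moves by over 1.5 times. All 8 adipocyte markers listed, among them Adipoq and Plin1, lay above the array median on all 12 arrays, while the 4 endothelial, 3 germ cell and 3 thymic epithelial markers lay below it on all 12. Of the 4 preadipocyte and fibroblast markers measured 3 lay above it on all 12, Cd14 of the macrophage list lay above it on 9 arrays and Cd4 of the lymphocyte list on 11. With the inhibitor the adipocyte markers averaged 11.84 against 11.94 in control and the 4 preadipocyte markers measured averaged 9.18 against 9.42; their part in the proteasome values was not tested. In bulk RNA, fewer cells of a type and less RNA per cell cannot be told apart.

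Upstream sequences were read from RefSeq promoter windows of GRCm38.p6, each covering 250 bases before to 50 bases after an annotated start, and 40 of the 48 genes had a window (43 windows in all). Motifs were searched on both strands. TGACNNNGC, the core of the antioxidant response element that NRF1 and NRF2 bind, occurred in 5 windows (11.6%, against 12.4% of all 32851 windows in the table). CCAAT, the box bound by NF-Y, occurred in 14 windows (32.6% against 37.4%). GAAANNGAAA, the core of an interferon response element, occurred in 5 windows (11.6% against 3.44%). A match describes the letters in the window and is neither a binding site nor a cause, and a window without one says nothing of the factor.

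The antioxidant and interferon matches that lie wholly before the start are printed here on the gene's strand, 5′ to 3′, with the match in capitals. Values of several of these genes are described below, and a link between a match and those values was not tested. The first 4 hold the antioxidant core, as TGACNNNGC or its reverse complement.
Psmb6, chr11:70525318-70525356, plus strand: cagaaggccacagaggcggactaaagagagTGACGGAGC
Psmc6, chr14:45329574-45329635, plus strand: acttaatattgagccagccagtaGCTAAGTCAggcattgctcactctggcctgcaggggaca
Psmd12, chr11:107479278-107479319, plus strand: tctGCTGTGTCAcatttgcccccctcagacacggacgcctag
Psmd9, chr5:123228129-123228189, plus strand: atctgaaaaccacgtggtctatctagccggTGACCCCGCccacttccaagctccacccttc
The next 3 hold the interferon core in either orientation.
Psmb3, chr11:97703241-97703310, plus strand: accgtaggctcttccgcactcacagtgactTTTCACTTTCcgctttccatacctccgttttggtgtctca
Psmd4, chr3:95042655-95042724, minus strand: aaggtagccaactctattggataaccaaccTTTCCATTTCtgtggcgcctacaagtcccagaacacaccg
Psmd9, chr5:123228001-123228070, plus strand: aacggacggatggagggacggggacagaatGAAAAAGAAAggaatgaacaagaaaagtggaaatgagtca
The Psmb6 match ends at the base before the start, and that of Psmb3 begins 163 bases before it. Psmb3 also holds CCAAT at 85 and at 43 bases before the start, and Psmd4 holds its reverse complement at 95, inside the sequence printed for it. In the gene order of the RefSeq table Psmb9 and Psmb8 flank Tap1, with Tap2 on the far side of Psmb8, and Psme1 and Psme2 are separated by Emc9 alone.

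Proteasome transcripts stayed within narrow limits over all 12 cultures. The mean of the 48 genes was 8.96 ± 0.06 in control, 8.96 ± 0.06 with ALA, 9.02 ± 0.03 with the inhibitor and 9 ± 0.07 with both (log2 signal, SD, n = 3 arrays each). The spread between cultures of a group, the residual SD of the fit, had a median of 0.124 over the 48 genes, against 0.204 over all clusters and 0.159 over the brighter 11052. From the lowest to the highest array the median gene spanned 0.39, from 0.19 for Psmb6 to 1.15 for Psma8, and 26 of 48 spanned under 0.5, as did 24.1% of all clusters. The median range was 0.7 over all clusters and 0.55 over the brighter 11052, so part of that contrast goes with signal level. Of the 48 genes, 42 lay above the array median on all 12 arrays; Psma8, Psmb11, Psmb8, Psmg3 and Psmg4 lay below it on all 12, and Psmb9 lay above it on 1. No background level was measured for these 6 genes.

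**Figure D1:**
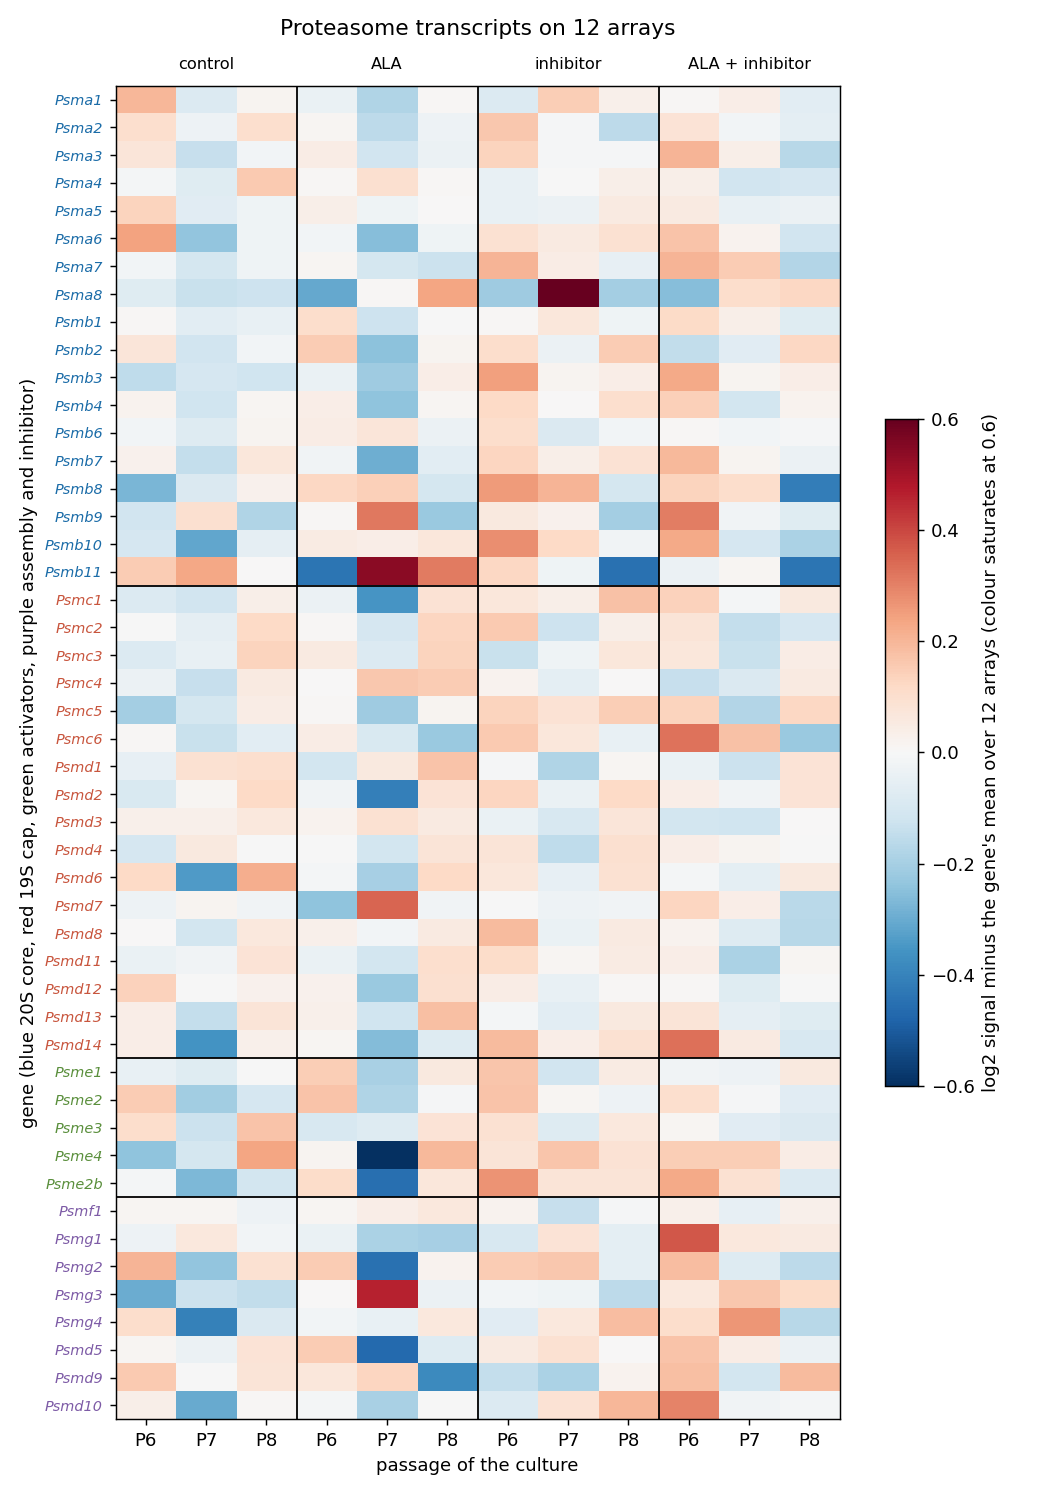
Each row is a proteasome gene and each column an array, ordered by treatment and, within it, by passage (P6, P7, P8); colour gives the log2 signal minus the gene's own mean over the 12 arrays. Most cells are pale, since the median gene spans 0.39 from its lowest to its highest array. The darkest cells belong to Psma8 and Psmb11, which lie below the array median, and to the passage 7 array of ALA.

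No proteasome gene passed an adjusted p of 0.05 (limma, Benjamini-Hochberg over all 22104 clusters) in any of the 8 comparisons, and none reached an unadjusted p of 0.01, the threshold the series design names. ALA against control gave 0 of 48 genes at 0.01, where 0.525% of all clusters were called, and 1 at an unadjusted 0.05, where 3.41% were. The inhibitor against control gave 0 at 0.01 (0.855% of all clusters) and 0 at 0.05 (4.32%). ALA plus inhibitor against ALA gave 0 at 0.01 (1.47%) and 1 at 0.05 (7.27%). The same cells against the inhibitor alone gave 0 at 0.01 (0.728%) and 0 at 0.05 (3.56%). The inhibitor averaged over both backgrounds, 6 arrays against 6, gave 0 at 0.01 (1.9%) and 1 at 0.05 (8.76%). The interaction, which asks whether the inhibitor difference itself differs with ALA, gave 0 at 0.01 (0.638%) and 0 at 0.05 (3.42%). None of these counts stood above the background, and the comparisons share arrays, so they are not independent of each other. Leaving out single arrays moved the small counts at 0.05, and the share of all clusters called without each array is not given here. The ALA count was 0 without the passage 6 control array or the passage 7 array of ALA. The inhibitor count was 2 without the passage 7 array of ALA and 1 without the passage 8 array of the inhibitor or the passage 6 array of both agents. For both agents against ALA it was 3 without the passage 6 array of ALA, 2 without the passage 8 array of both and 0 without the passage 6 array of both. The averaged count was 0 without the passage 6 array of control, inhibitor or both or the passage 7 array of ALA, 2 without the passage 7 array of both, 3 and 4 without the passage 6 and 8 arrays of ALA, and 5 without the passage 8 array of both. The interaction count was 1 without the passage 6 array of both.

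Groups of 3 arrays that did not overlap were about as frequent among the proteasome genes as elsewhere, or less so. They did not overlap for 3 genes with ALA (6.25%, against 6.77% of all clusters), 5 with the inhibitor (10.4% against 10.8%), 2 for both agents against ALA (4.17% against 11.6%) and 1 for both against the inhibitor (2.08% against 9.73%).

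A p that misses the threshold does not show that levels did not differ, so the intervals set the bound. For ALA against control the 95% interval of 45 of 48 genes lay inside a 1.5-fold change in either direction, against 72.9% of all clusters and 85% of the brighter ones. Psma8, Psme4 and Psmg3 were the exceptions. For the inhibitor against control 44 of 48 intervals lay inside, against 71.6% of all clusters and 84.3% of the brighter ones, with Psma8, Psmb11, Psme2b and Psme4 outside. ALA plus inhibitor against ALA had 46 inside (66.8% of all clusters), and against the inhibitor alone 47 (74.4%). All 17 cap genes lay inside the bound in each of these 4 comparisons and in the passage comparisons. The interaction, which sums the error of 4 groups, was bounded in this way for 40 of 48.

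**Figure D2:**
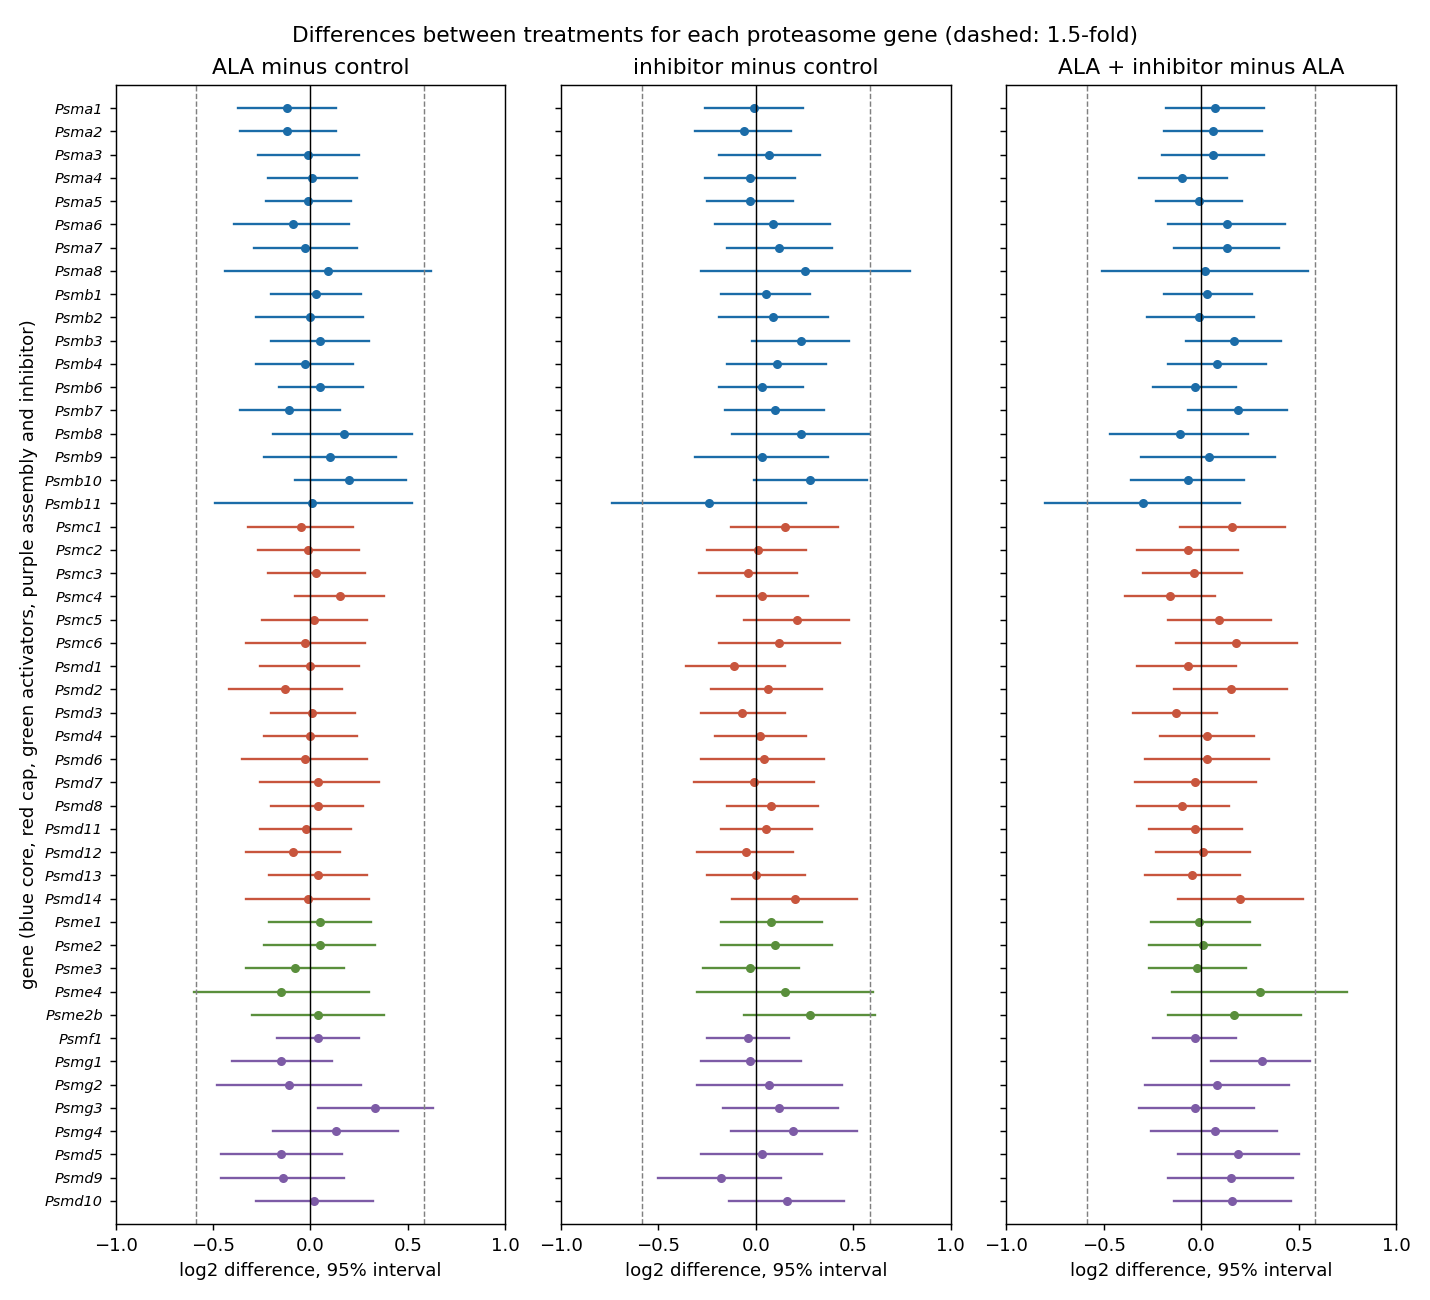
Each point is the log2 difference of a proteasome gene with its 95% interval (limma), for ALA minus control, inhibitor minus control, and ALA plus inhibitor minus ALA; dashed lines mark a 1.5-fold change. The intervals of 45, 44 and 46 of 48 genes lie between the dashed lines, and those of Psmg3 on the left and Psmg1 on the right leave out 0.

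The direction of the whole set moved little with ALA and leaned upward with the inhibitor, by small amounts. With ALA, 23 of 48 genes were higher and 25 lower, with a median difference of -0.002 (all clusters 0.008). Without the passage 7 array of ALA 33 were higher and the median was 0.049, and after quantile normalization 30 were higher. With the inhibitor, 34 of 48 were higher and the median was 0.055 (all clusters -0.003; 56.8% of brighter clusters were higher). Centring each array on its median made this 42 of 48 with a median of 0.105, while it moved all clusters to 0.046. By passage, 31, 35 and 23 of 48 genes were higher with the inhibitor at passages 6, 7 and 8, so the lean was not seen at passage 8. Of the brighter clusters 52.3%, 56.8% and 54.7% were higher in that order. On the ALA background 28 of 48 were higher with the inhibitor (median 0.031), while centring made it 34 and leaving out the passage 7 array of ALA made it 22 (median -0.011). Averaged over both backgrounds 31 were higher (median 0.043), or 42 after centring, and the cap on its own had 8 higher and 9 lower. The interaction was higher in 22 and lower in 26, or 13 and 35 after centring. ALA plus inhibitor against the inhibitor alone had 17 higher and 31 lower (median -0.024), which became 8 and 40 after centring, 22 and 26 after quantile normalization, and 25 and 23 without the passage 8 array of the double treatment. As deposited, each of these medians was smaller than 0.061, the SD of the 48-gene mean between arrays of a group. After centring the inhibitor median of 0.105 was above it. That SD describes single arrays and is not the error of a difference between group means, so it is no test of the lean.

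**Figure D3:**
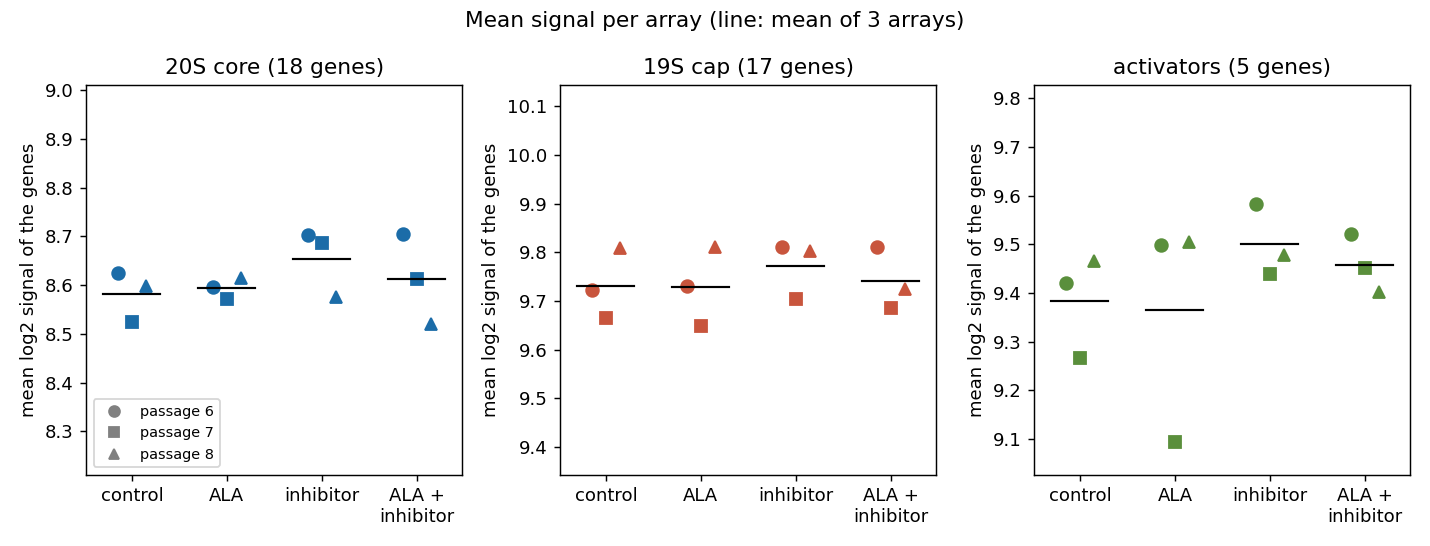
The panels plot the mean log2 signal of the 20S core (18 genes), 19S cap (17 genes) and activator genes (5 genes) on each array, with symbols for passage 6, 7 and 8 and a line for the mean of the 3 arrays of a group. Group means span 8.58 to 8.65 for the core and 9.73 to 9.77 for the cap, and the arrays of the 4 groups overlap. The lowest activator point, 9.09, is ALA at passage 7.

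The alpha subunits form the outer rings of the core and its gate. With ALA 6 of the 7 standard alpha genes were lower, by at most 0.12, and with the inhibitor 3 were higher and 4 lower, between -0.06 and 0.12. Psma1 and Psma2 had the lowest ALA differences, both -0.12 (-0.06 and -0.07 without the passage 7 array of ALA), and Psma7 the highest inhibitor difference, 0.12. None of the 7 reached an unadjusted p of 0.05 in a treatment comparison. Psma8, the alpha subunit of the testis proteasome, lay below the array median on all arrays, as did the 3 germ cell markers Ddx4, Dazl and Sycp3. Its highest value, 4.59, came from the inhibitor at passage 7 and its other 11 values lay between 3.44 and 3.98.

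Of the constitutive beta subunits, Psmb6 carries the caspase-like and Psmb7 the trypsin-like site. Psmb6 had the smallest range over the arrays of the 48 genes. At passages 6, 7 and 8 its signal was 10.31, 10.25 and 10.34 in control, 10.37, 10.40 and 10.29 with ALA, 10.43, 10.24 and 10.31 with the inhibitor, and 10.33, 10.31 and 10.32 with both. All 4 groups overlapped. The differences were 0.05 for ALA (0.03 without its passage 7 array) and 0.03 for the inhibitor.

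Psmb7 read 10.43, 10.26 and 10.47 in control, 10.38, 10.11 and 10.34 with ALA, 10.53, 10.44 and 10.49 with the inhibitor, and 10.60, 10.42 and 10.37 with both. The 3 ALA values all lay below the 3 values with the inhibitor alone, and the other pairs of groups overlapped. Its largest difference was 0.19 (95% interval -0.07 to 0.44, limma adjusted p = 0.72) for both agents against ALA, and it was 0.10 without the passage 7 array of ALA.

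Psmb3 is a structural beta subunit without a cutting site whose upstream window holds an interferon core, printed above. It read 9.46, 9.51 and 9.49 in control, 9.57, 9.40 and 9.65 with ALA, 9.86, 9.63 and 9.65 with the inhibitor, and 9.84, 9.63 and 9.65 with both. All 3 inhibitor values and all 3 values with both agents lay above all control values, and the ALA group overlapped the others. The difference averaged over both backgrounds was 0.20 (SE 0.08, interval 0.02 to 0.37, limma adjusted p = 0.53), and it was 0.23 on the control background alone (interval -0.02 to 0.48). Without the passage 7 array of ALA, or the passage 6 array of the inhibitor or of both, the averaged difference was 0.16 and missed the unadjusted 0.05, as it did without the passage 6 control array (0.19). All 6 constitutive beta genes measured, Psmb1, Psmb2, Psmb3, Psmb4, Psmb6 and Psmb7, were higher with the inhibitor than in control, by 0.03 to 0.23, and 4 of the 6 were higher with both agents than with ALA. Without the passage 7 array of ALA only Psmb3 (0.09) and Psmb7 (0.10) were higher in that last comparison.

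The inducible beta subunits Psmb8, Psmb9 and Psmb10 replace Psmb5, Psmb6 and Psmb7 in the immunoproteasome, and Psmb11 belongs to the thymus form. Psmb10, with the trypsin-like site, read 7.53, 7.32 and 7.58 in control, 7.68, 7.67 and 7.70 with ALA, 7.91, 7.75 and 7.61 with the inhibitor, and 7.86, 7.53 and 7.44 with both. Each single treatment lay above all control values and the double treatment overlapped control. The difference was 0.20 with ALA (interval -0.08 to 0.49), 0.28 with the inhibitor (-0.01 to 0.57) and -0.07 for both against ALA. The interaction was -0.35 (interval -0.76 to 0.06, limma adjusted p = 1). It was -0.27 without the passage 7 control array, the passage 6 array of the inhibitor or the passage 8 array of both agents, and -0.48 without the passage 6 array of both, where it passed the unadjusted 0.05.

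Psmb8, with the chymotrypsin-like site, read 5.59, 5.78 and 5.89 in control, 5.99, 6.01 and 5.76 with ALA, 6.12, 6.07 and 5.76 with the inhibitor, and 6.00, 5.97 and 5.45 with both. All 4 groups overlapped, and the passage 8 culture with both agents was the lowest of the 12. Its differences were 0.17 with ALA and 0.23 with the inhibitor, with an interaction of -0.34 (interval -0.84 to 0.16, limma adjusted p = 1).

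Psmb9, which takes the place of Psmb6, read 5.82, 6.03 and 5.75 in control, 5.94, 6.25 and 5.71 with ALA, 5.99, 5.96 and 5.73 with the inhibitor, and 6.24, 5.91 and 5.86 with both. Its groups overlapped throughout, with differences of 0.10 and 0.03, and the ALA difference was -0.04 without the passage 7 array. Psmb11 lay below the array median on all arrays, between 4.19 and 5.18, as did the thymic epithelial markers Foxn1, Krt5 and Epcam. The inducible genes shared the order of arrays in part. Psmb8 and Psmb10 were both highest with the inhibitor at passage 6 (6.12 and 7.91), where Psmb9 was 5.99. Psmb9 was highest at passage 7 with ALA (6.25), the array that stood apart, and read 6.24 at passage 6 with both agents. Their lowest values came from different arrays: 5.45 for Psmb8, 7.32 for Psmb10 and 5.71 for Psmb9.

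**Figure D4:**
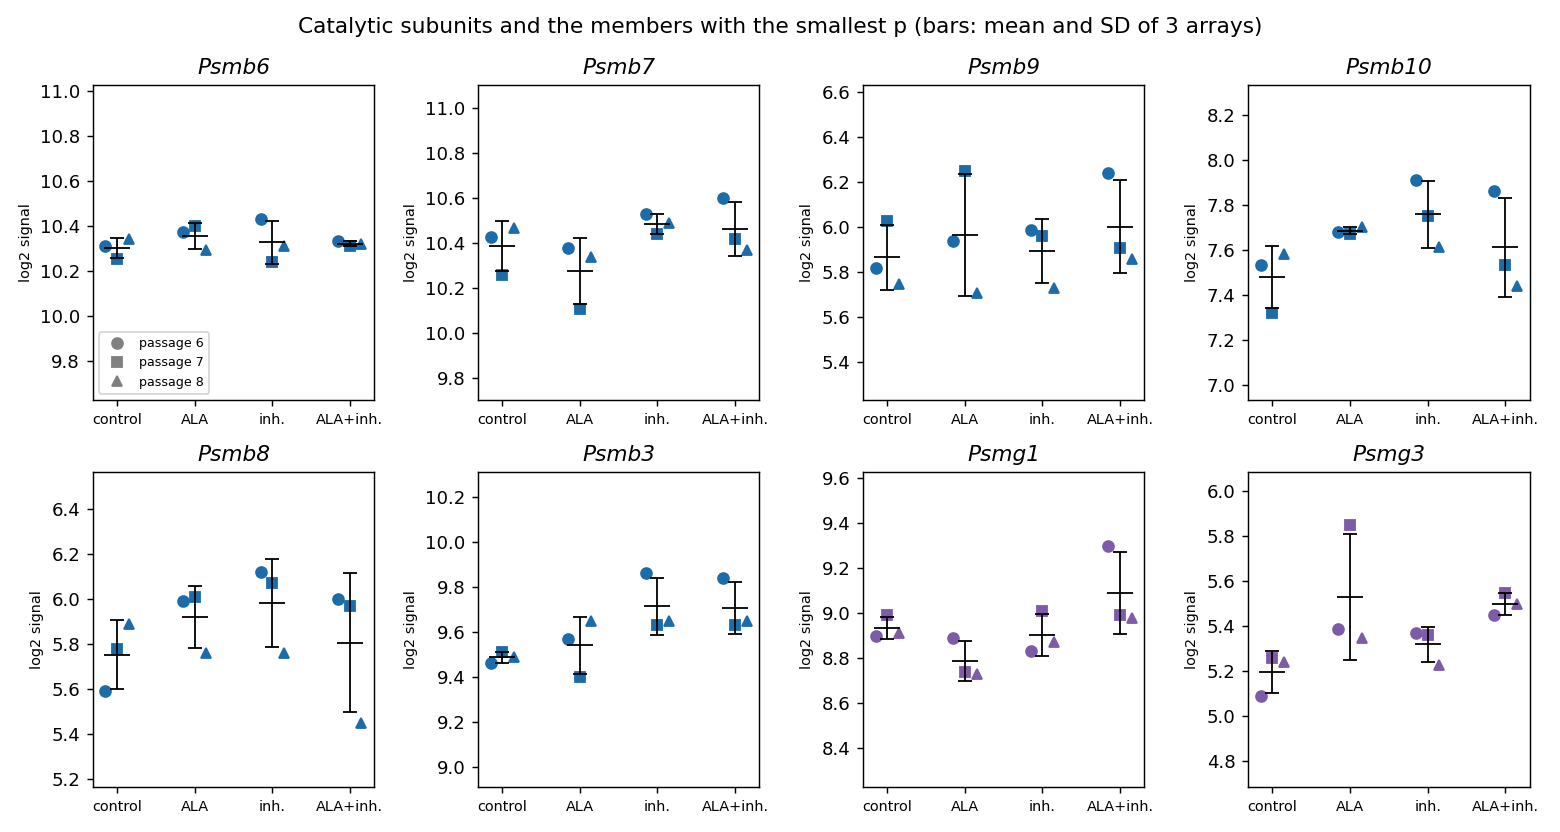
Log2 signal of the catalytic subunits and of the genes with the smallest p, with 1 point per array, symbols for passages 6, 7 and 8, and bars for the mean and SD of the 3 arrays of a group; each panel spans the same range of log2 units. Psmb6 is flat near 10.3 in all groups, Psmb10 is higher than control in both single treatments, and the Psmg3 mean with ALA is raised by the passage 7 array at 5.85.

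The ATPases Psmc1 to Psmc6 form the ring that unfolds substrates. Their differences ran from -0.05 to 0.15 with ALA and from -0.04 to 0.21 with the inhibitor, where 5 of 6 were higher. The ALA differences ran from -0.02 to 0.12 without the passage 7 array. Psmc4 had the smallest p of the cap with ALA, at 9.43, 9.33 and 9.52 in control and 9.47, 9.63 and 9.62 with ALA. These groups overlapped (difference 0.15, interval -0.08 to 0.38, limma adjusted p = 1). With the inhibitor Psmc4 read 9.49, 9.41 and 9.47, and with both 9.33, 9.38 and 9.52, which was -0.16 against ALA (adjusted p = 0.73) with overlapping values. Psmc5 read 8.06, 8.16 and 8.31 in control and 8.40, 8.35 and 8.41 with the inhibitor. Those values did not overlap (difference 0.21, adjusted p = 1). Psmc1 with the inhibitor, at 9.15, 9.12 and 9.26, also lay at or above its highest control value of 9.12.

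The 11 non-ATPase cap subunits include the ubiquitin receptor Psmd4, the deubiquitinase Psmd14 that strips ubiquitin from the substrate, and the scaffolds Psmd1 and Psmd2. Their differences ran from -0.13 to 0.04 with ALA and from -0.11 to 0.20 with the inhibitor. Leaving out the passage 7 array of ALA, the ALA differences ran from -0.12 to 0.11, and that of Psmd2, the lowest with all arrays, was 0.02. Psmd14 read 9.15, 8.75 and 9.14 in control, 9.12, 8.85 and 9.03 with ALA, 9.30, 9.15 and 9.20 with the inhibitor, and 9.44, 9.16 and 9.01 with both. It was 0.20 higher with the inhibitor averaged over both backgrounds (interval -0.02 to 0.43, limma adjusted p = 0.59), with overlapping values. Psmd8, a cap lid subunit, gave the lowest difference of the cap for both agents against the inhibitor alone, -0.14, at 10.18, 10.08 and 9.99 against 10.35, 10.12 and 10.21. It read 10.16, 10.05 and 10.22 in control and 10.19, 10.14 and 10.21 with ALA, and the groups overlapped. Psmd3, another lid subunit, was lower with both agents than with ALA in values that did not overlap (9.93, 9.92 and 10.04 against 10.06, 10.13 and 10.09; difference -0.13). Psmd4, whose window holds an interferon core, differed by 0.00 with ALA (0.05 without its passage 7 array) and 0.02 with the inhibitor.

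Activators open the core gate without ubiquitin: Psme1 and Psme2 form the interferon-inducible PA28 ring, Psme3 its nuclear relative and Psme4 the large activator PA200. None of the 5 activator genes reached an unadjusted p of 0.05 between treatments. Psme1 differed by 0.05 with ALA and 0.08 with the inhibitor, Psme2 by 0.05 and 0.10, and Psme3 by -0.08 and -0.03. The ALA differences of Psme1 and Psme2 were 0.15 and 0.13 without the passage 7 array. Psme4 read 8.73, 8.87 and 9.21 in control and 8.99, 8.20 and 9.17 with ALA. It read 9.05, 9.14 and 9.06 with the inhibitor and 9.12, 9.12 and 9.02 with both. The value of 8.20 on the array that stood apart was its lowest, and no other of its values was below 8.73. Its ALA difference was -0.15 with that array and 0.15 without it. Psme2b, a retrogene copy of Psme2, read 7.50, 7.24 and 7.40 in control, 7.62, 7.06 and 7.58 with ALA, 7.78, 7.59 and 7.59 with the inhibitor, and 7.74, 7.60 and 7.43 with both. Its ALA difference was 0.04, or 0.22 without the passage 7 array. All inhibitor values lay above all control values (difference 0.28, interval -0.06 to 0.61, limma adjusted p = 1), and probes of this copy may also read Psme2 transcripts.

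Psmg1 to Psmg4 are the chaperones that assemble the alpha ring. The only gene of the 48 under an unadjusted 0.05 with ALA was Psmg3. It read 5.09, 5.26 and 5.24 in control, 5.39, 5.85 and 5.35 with ALA, 5.37, 5.36 and 5.23 with the inhibitor, and 5.45, 5.55 and 5.50 with both. All ALA values lay above all control values, and all values with both agents lay above all values with the inhibitor alone. The ALA difference was 0.33 (SE 0.14, interval 0.04 to 0.63, limma adjusted p = 1). Without the passage 7 array of ALA it was 0.17 and without the passage 6 control array 0.28, both short of the unadjusted 0.05, and Psmg3 lay below the array median on all arrays.

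Psmg1, the partner chaperone of Psmg2, was the only gene under 0.05 for both agents against ALA. It read 8.90, 8.99 and 8.91 in control, 8.89, 8.74 and 8.73 with ALA, 8.83, 9.01 and 8.87 with the inhibitor, and 9.30, 8.99 and 8.98 with both. All ALA values lay below all control values, by a mean of 0.15, and below all values with both agents. The difference of both against ALA was 0.31 (SE 0.12, interval 0.05 to 0.56, limma adjusted p = 0.67), and the interaction was 0.33 (interval -0.03 to 0.70, adjusted p = 1). The difference was 0.20 without the passage 6 array of both agents and 0.28 without the passage 8 array of ALA, both short of the unadjusted 0.05. Psmg1 was 1 of 48 genes in a comparison in which 7.27% of all clusters were called at this threshold.

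Psmd5, Psmd9 and Psmd10 are chaperones of the cap base, and Psmf1 encodes PI31, which binds the core. Psmd9, whose window holds both cores printed above, read 7.65, 7.49 and 7.57 in control, 7.56, 7.62 and 7.11 with ALA, 7.35, 7.30 and 7.51 with the inhibitor, and 7.67, 7.38 and 7.68 with both. The groups overlapped, and its interaction was 0.33 (interval -0.11 to 0.78, limma adjusted p = 1). Psmd5 differed by -0.15 with ALA and 0.03 with the inhibitor, Psmd10 by 0.02 and 0.16, and Psmf1 by 0.04 and -0.04. The passage 7 array of ALA held the lowest Psmd5 value of the 12, 8.78, and without it the ALA difference of Psmd5 was 0.01 and that of Psmd10 0.08. Psmf1 spanned 10.82 to 11.02 over the 12 arrays.

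Psmc3ip, set apart because it is a recombination partner of an ATPase subunit and no part of the proteasome, was the only gene matching the name pattern with an unadjusted p under 0.01. It read 6.57, 6.79 and 6.83 in control and 7.10, 7.12 and 7.16 with ALA, without overlap (difference 0.40, SE 0.13, limma adjusted p = 1). Its values were 6.98, 6.93 and 7.03 with the inhibitor and 6.70, 7.14 and 7.06 with both.

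Across passages the proteasome genes leaned downward at passage 7. The passage comparison was fitted over all 4 groups with treatment in the model, 4 arrays a passage. The mean of the 48 genes was 9.02 ± 0.05 at passage 6, 8.93 ± 0.06 at passage 7 and 8.98 ± 0.03 at passage 8 (SD, n = 4 arrays each). Of the 48 genes, 39 were lower at passage 7 than at passage 6, with a median of -0.122 against 0.004 over all clusters and -0.037 over the brighter ones, of which 39.3% were higher. In the 4 groups taken singly 32 (control), 34 (ALA), 36 (inhibitor) and 40 (both) of 48 genes were lower. Of the brighter clusters 53.5%, 60.9%, 49.7% and 58% were lower in the same order. The 7 standard alpha, 6 constitutive beta and 5 activator genes were all lower, as were 13 of 17 cap genes. Without the passage 7 array of ALA 41 of 48 were lower with a median of -0.096, and after quantile normalization 38 were, with -0.085. Leaving out that array, 4 of the 5 activator genes and 16 of 17 cap genes were lower. Psme4 then turned from -0.14 to 0.08 and Psma1 moved from -0.04 to 0. The labels do not say what else differed between passages.

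No gene passed at an adjusted p of 0.05 at passage 7. At an unadjusted 0.01 it was 0 of 48, where 2.09% of all clusters were called. At an unadjusted 0.05 there were 6 of 48, all lower (Psme2, Psmd14, Psmg2, Psme2b, Psmb4 and Psma6), where 9.29% of all clusters were called. That count was 14 with an intensity-dependent prior, 3 without the passage 7 array of control or of ALA, and 2 without the passage 6 array of ALA or of both. The share of all clusters called in these settings is not given here, and 9.29% is no background for them. The 4 values of 9 of the 48 genes at passage 7 all lay below their 4 values at passage 6 (18.8%, against 4.27% of all clusters not overlapping in either direction and 5.77% of the brighter ones).

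Psme2 had the smallest p. At passage 6 it read 9.08 in control, 9.10 with ALA, 9.10 with the inhibitor and 9.03 with both, and at passage 7 it read 8.72, 8.75, 8.94 and 8.92 in that order. The passages did not overlap. The difference was -0.25 (SE 0.08, interval -0.43 to -0.07, limma adjusted p = 0.47). At passage 8 its values were 8.83, 8.92, 8.90 and 8.86, also below all passage 6 values (difference -0.20, adjusted p = 0.28). Psmd14 differed by -0.28 at passage 7 (interval -0.50 to -0.06, adjusted p = 0.49). Psmg2, at 8.52, 8.47, 8.47 and 8.50 at passage 6 and 8.08, 7.87, 8.48 and 8.24 at passage 7, differed by -0.32 (adjusted p = 0.5) with overlapping values, and read 8.41, 8.34, 8.26 and 8.16 at passage 8.

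At passage 8 the core and the cap had medians of opposite sign against passage 6, and 17 of all 48 genes were higher and 31 lower. Of the 18 core genes 15 were lower (median -0.081), while 11 of the 17 cap genes were higher (median 0.044), against a median of -0.013 over all clusters. After centring the core count was again 15 of 18 and after quantile normalization 17 of 18, and the cap count was 11 of 17 under both. By group, the cap was higher in 14 of 17 genes in control and 15 with ALA, but in 8 with the inhibitor and 5 with both. The core was lower in 11, 12, 12 and 16 of 18 in the same order. The difference between core and cap was not tested, since the genes share their arrays. Over all clusters 423 were called at an adjusted p of 0.05, none of them among the 48.

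Counted by threshold, passage 8 gave 0 of 48 genes at an unadjusted 0.01 (5.95% of all clusters) and 2 at 0.05 (14.6%), Psmc6 and Psme2, both lower. The count at 0.05 was 4 with an intensity-dependent prior or quantile normalization and 1 after centring. It was 1 without the passage 8 array of the inhibitor or the passage 6 array of both agents, and 0 without the passage 8 array of both. For these settings too the share of all clusters called is not given here. The ATPase Psmc6 read 9.90, 9.94, 10.05 and 10.22 at passage 6 in control, ALA, inhibitor and both, and 9.83, 9.67, 9.85 and 9.67 at passage 8. Those values did not overlap (difference -0.27, SE 0.10, interval -0.48 to -0.06, limma adjusted p = 0.22), and at passage 7 it read 9.76, 9.80, 9.96 and 10.07. With an intensity-dependent prior its adjusted p was 0.046, the only proteasome gene to pass in any setting tried. Psma7, an alpha subunit, read 8.80, 8.83, 9.02 and 9.02 at passage 6 and 8.79, 8.69, 8.77 and 8.64 at passage 8. Its passages did not overlap either (difference -0.20, adjusted p = 0.35), and at passage 7 it read 8.71, 8.71, 8.86 and 8.97. In all, 7 of 48 genes did not overlap (14.6%, against 12.5% of all clusters and 20% of the brighter ones).

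**Figure D5:**
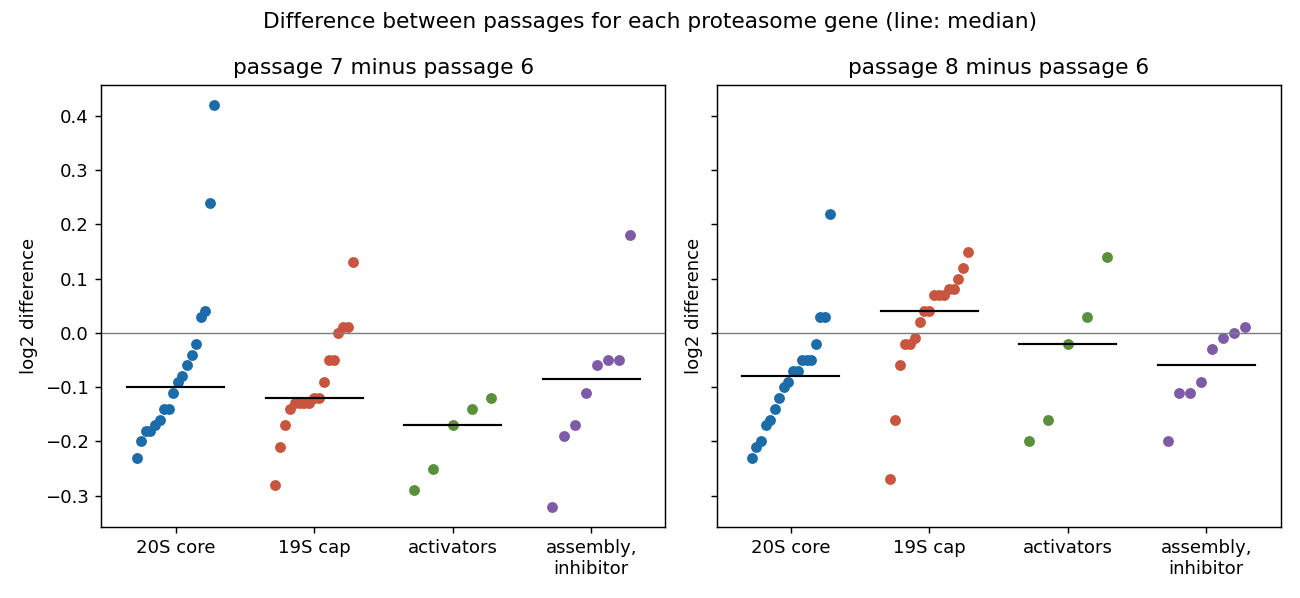
Each point is a proteasome gene, sorted within its class, with its log2 difference of passage 7 (left) or passage 8 (right) from passage 6 over all 4 treatments, and lines mark class medians. On the left 39 of 48 points lie below 0. On the right 15 of 18 core points lie below 0 and 11 of 17 cap points above it.

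The genes around the proteasome were described from lists, with no test of a list. Of the 11 measured partners and assembly factors 10 were lower with ALA (median -0.094) and 9 were higher with both agents than with ALA (median 0.085), and 0 of 11 passed an unadjusted 0.05 in either. Both counts rest on the passage 7 array of ALA: without it 5 of 11 were lower with ALA (median 0) and 4 of 11 were higher with both agents than with ALA (median -0.009). In this list Uchl5, a deubiquitinase of the cap, had the smallest p with ALA (difference -0.24, limma adjusted p = 1), and its difference was -0.15 without that array. Usp14, another cap deubiquitinase, read 5.50 on the passage 7 array of ALA and between 6.96 and 7.69 on the other 11. Its ALA difference was -0.47 with that array and 0.17 without it. Of the same 11 factors 10 were lower at passage 7 than at passage 6 (median -0.153), or 9 without the passage 7 array of ALA (median -0.097). They included Sem1, a small lid subunit (-0.21, adjusted p = 0.53), and Pomp, the maturation factor of the core (-0.17, adjusted p = 0.55).

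Of the 12 measured genes of the NRF1 route 0 passed an unadjusted 0.05 with ALA, with the inhibitor, or with both agents against ALA. Ngly1, the enzyme that activates NRF1 by removing its sugars, did when the passage 7 array of ALA was left out. Its differences were then 0.37 with ALA and -0.41 for both against ALA (limma adjusted p = 1 and 0.99). The Ngly1 interaction without that array was -0.43, also under the unadjusted 0.05. Averaged over both backgrounds 1 of 12 passed it with the inhibitor, where 8.76% of all clusters did. This was Sel1l, an adaptor of protein export from the endoplasmic reticulum (0.26, limma adjusted p = 0.57, or 0.16 without that array). Nfe2l1, which encodes NRF1, differed by 0.03 with ALA and 0.11 with the inhibitor. At passage 8 Maff, a small partner of NRF1, was below passage 6 (difference -0.46, limma adjusted p = 0.11). Vcp, the extractor of ubiquitinated proteins, read 7.74 on the passage 7 array of ALA, its lowest value. In control, ALA, inhibitor and both, Vcp read 8.85, 9.26, 9.22 and 9.38 at passage 6. It read 9.85, 9.81, 9.92 and 9.86 at passage 8, without overlap (difference 0.68, limma unadjusted p = 0.027). The difference was the same without the passage 7 array of ALA, where its limma adjusted p was 0.018. Of the 6 measured genes of ubiquitin and its shuttles 4 were higher with ALA and 4 with the inhibitor, with none at an unadjusted 0.05 in either. Averaged over both backgrounds 2 of 6 passed it with the inhibitor, against 8.76% of all clusters, and 0 of 6 without the passage 7 array of ALA. The 2 were Sqstm1 (0.18) and Ubqln2 (-0.20), both shuttles of ubiquitinated proteins (limma adjusted p = 0.57 each).

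Of the 13 measured genes of MHC class I presentation and interferon input 6 were higher and 7 lower with ALA, and again 6 and 7 with the inhibitor. Averaged over both backgrounds 2 of 13 passed an unadjusted 0.05 with the inhibitor, Tap1 and Pdia3 (0.22), against 8.76% of all clusters. Without the passage 7 array of ALA 1 did. Tap1, the peptide transporter gene between Psmb9 and Psmb8, read 8.27, 8.64 and 8.52 in control, 8.72, 8.44 and 8.58 with ALA, 8.56, 8.74 and 8.77 with the inhibitor, and 8.99, 8.92 and 8.69 with both. Its values overlapped between control and inhibitor. The inhibitor difference averaged over both backgrounds was 0.25 for Tap1 (SE 0.10, limma adjusted p = 0.52) and -0.02 for its partner Tap2. At passage 8 H2-K1, a class I heavy chain, was 0.27 above passage 6 (adjusted p = 0.11), while Psmb8, Psmb9 and Psmb10 differed by -0.21, -0.23 and -0.16.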

How the data were processed

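The authors deposited log2 signals for each transcript cluster on each array. The submitters' processing notes name RMA, a method that subtracts background, normalizes probes across arrays and combines a cluster's probes; its software and version are not given in the sources used here. Symbols came from GEO's annotation of the array, which left 2595 of 22104 clusters without 1 symbol. Samples were grouped by their labels. In R 4.3.3 with limma 3.58.1, all clusters entered 1 linear model of the 4 treatment groups (8 residual and 4.66 prior degrees of freedom), two-sided, with no filter or further scaling and p-values adjusted over all clusters. Passages were compared in a model of treatment and passage. The fit was tested on simulated data with known changes. Arrays give no read depth, and their number limits the precision.

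Values in every array are given for the 3 genes with the smallest p in each comparison and for the catalytic subunits, and other genes were added after their values were seen. Members and lists were chosen with earlier results of these data known. Alternatives were array weights, an intensity trend, centring, quantile normalization, a filter on dim clusters, the mean of a gene's clusters, each array left out, passage as a block, the arrays compared alone, and, chosen after seeing the data, all arrays of passage 7 left out and, for the gene lists, the passage 7 array of ALA left out. Arrays of the same passage correlated at over 0.1 at every passage only for both agents against ALA, at 0.16, 0.16 and 0.24. The other treatment comparisons were also positive but uneven. At passages 6, 7 and 8 they were 0.01, 0.34 and 0.46 for ALA against control. They were 0.19, 0.08 and 0.36 for the inhibitor against control, and 0.14, 0.09 and 0.27 for both against the inhibitor. Passage is not a block in the fit reported, and results with the block are given at the end. Protein sequences were not used here.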

Additional observations from a re-analysis of the deposited data

Results flagged for a closer look

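The ALA difference of Psmb10, the inducible trypsin-like subunit, was positive in all 3 passages without the inhibitor (mean 0.20) and negative in all 3 with it (mean -0.15), so the difference between both was -0.35. The interaction test gave a limma adjusted p of 1, and so did not pass. The same opposite signs in all 3 passages were seen for Psme2, a subunit of the PA28 activator, at 0.05 without and -0.05 with the inhibitor, a difference of -0.09 with an adjusted interaction p of 1. Both cases rest on 3 arrays a group, and the share of all clusters with this sign pattern is not given here. The residual SD was 0.15 for Psmb10 and 0.146 for Psme2.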

How the results depend on the processing

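Under the alternatives run, the median difference of the 48 genes moved from its reported value by less than the SD of the 48-gene mean between arrays (0.061 for treatments, 0.046 for passages), with 1 exception. The interaction was -0.069 without the passage 6 array of both agents, in a range of -0.069 to 0.013 over the arrays left out in turn. Leaving out arrays in turn gave medians of -0.036 to 0.049 for ALA, 0.026 to 0.08 for the inhibitor, -0.011 to 0.064 for both against ALA, -0.047 to 0.008 for both against the inhibitor, -0.15 to -0.096 for passage 7 and -0.048 to -0.017 for passage 8. Without all passage 7 arrays, both against ALA had a median of -0.009. With passage as a replicate block the medians were as before, and the counts at an unadjusted 0.05 were 2 for the inhibitor, 3 for the inhibitor averaged over both backgrounds and 1 for both against ALA (Psmg1, adjusted p = 0.42). The share of all clusters called with the block is not given here. The block changed no call at an adjusted 0.05. Of the 48 genes only Psmc6 at passage 8 passed that threshold, with an intensity trend (limma adjusted p = 0.046). The cause was not tested. Each gene had 1 cluster, so averaging clusters changed nothing. No background level was measured, so how far above background Psma8, Psmb11, Psmb8, Psmb9, Psmg3 and Psmg4 lay was not tested.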
